A study of Homo sapiens with 3 samples.

Results

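The comparison set gene expression in cells given the PADI4 inhibitor GSK484 against that in cells given a control compound, both for 72 h. MCF10Ca1h, an established human breast cancer line that forms tumours and belongs to the MCF10 mammary epithelial series, was used for both libraries. The comparison is described across every gene that reached 1 CPM (counts scaled to a fixed library total) in either library, which held for 13199 of the 56632 genes listed. Over the whole series, 13312 genes reached that level in at least 1 of 3 libraries. The library given GSK484 is called GSK484, the library given the control compound is called CON, and a library of untreated cells is called NT. Cells were grown in DMEM/F12 with 5% horse serum. The treatment text names the control compound GSK107 and the deposited table of that library names it GSK106, so no structure or code is assigned to it here. No dose is given for either compound and no time for NT. The labels describe no separate cultures within a group, so each group is 1 library of 1 line.

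PADI4 is a calcium-dependent peptidylarginine deiminase. It turns arginine residues of histones and other nuclear proteins into citrulline, which removes a positive charge and can change how chromatin is bound. It is best known from neutrophils, where citrullinated histones accompany the release of chromatin as extracellular traps. GSK484 blocks the enzyme's activity and is not directed at its mRNA. PADI4 itself was scarce, with 0.680 CPM in CON against 0.603 in GSK484 and 0.660 in NT. At this depth no difference could be detected (interval of the log2 fold -0.75 to 0.40).

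With 1 library a side there was no replicate spread and no test. A difference was called beyond counting error where the exact conditional binomial 95% interval of the ratio of counts excluded no difference. That interval says nothing of how much 2 cultures of the same group would differ. The deposited expected counts came to 92980847 in CON, 77220120 in GSK484 and 70555229 in NT. The mean fragment length was 182 bases in CON, 178 in GSK484 and 189 in NT. All 12 mammary epithelial markers were measured in these libraries, and their summed level was 18907 CPM in CON, 19874 in GSK484 and 18263 in NT. Of 10 fibroblast markers 2 reached 1 CPM and 4 were at 0 in all 3 libraries, with summed levels of 15.2 CPM in CON, 19.02 in GSK484 and 18.1 in NT. Of 10 leukocyte markers 4 reached 1 CPM. The defining leukocyte genes PTPRC, CD3E, MS4A1, MPO and ELANE were at 0 in all 3 libraries. Of 7 endothelial markers matched 1 reached 1 CPM, and of 5 luminal hormone responsive markers 3 did.

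Most genes lay close to equality. The median log2 fold of GSK484 over CON was -0.01 over the 13199 genes, with quartiles of -0.11 and 0.12. At least 1.5-fold higher in GSK484 were 302 genes, or 2.29% of those measured, and at least 1.5-fold lower were 166, or 1.26%. At least 2-fold higher were 26 genes (0.197%) and at least 2-fold lower were 36 (0.273%). Beyond counting error, whatever the size, 3548 genes were higher (26.9%) and 3623 lower (27.4%). The balance of higher and lower genes depended on the scaling. Without TMM factors, which scale libraries to each other by most of their genes, 4622 genes were higher and 2536 lower, and with the deposited TPM, under which the median log2 fold of all genes was 0.10, 6694 were higher and 1618 lower. Removing the trend on GC content and length that is described below gave 160 genes at least 1.5-fold higher and 136 lower. These depths resolve small ratios, so a call beyond counting error is common and is read beside the size of the fold. Size depended on level in turn. From 1 to 2 CPM in the larger library, 6.67% of genes were at least 1.5-fold higher and 7.80% at least 1.5-fold lower. From 100 to 500 CPM these shares were 0.451% and 0.225%. Just under the limit of 1 CPM lay CPLX1, at 0.997 CPM in CON and 0.9496 in GSK484, and just above it PDGFD, at 0.877 CPM in CON and 1.001 in GSK484.

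**Figure D1:**
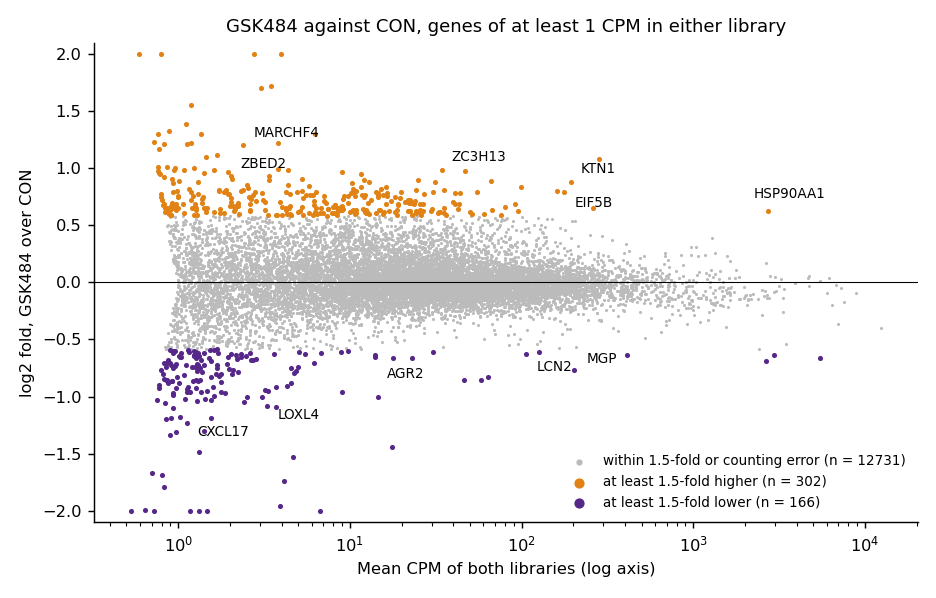
Each point is 1 of 13199 genes, with the mean CPM of the GSK484 and CON libraries on a log axis and the log2 fold of GSK484 over CON on the vertical axis. The 302 genes at least 1.5-fold higher and the 166 at least 1.5-fold lower are coloured, and 10 genes beyond a log2 fold of 2 in size are drawn at the edge. Divided-read genes are included.

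The 302 higher genes had a median transcript GC content of 39.4% and a median effective length of 3141 bases, against 48.4% and 2016 bases over all measured genes. The 166 lower genes had a median GC content of 51.7%, an effective length of 1493 bases and a low level, with a median of 1.88 CPM in the larger library. That median was 6.90 CPM for the 302 higher genes and 23.0 CPM for all measured genes. The 26 genes at least 2-fold higher were unlike the 302 in GC content and length, at 49.8% (known for 20 of them) and 2082 bases, close to all genes. Divided reads were carried by 76.9% of these 26 and by 80.6% of the 36 at least 2-fold lower. At 1.5-fold the shares were 38.7% of the higher and 54.2% of the lower genes, against 37.5% of all measured genes. Of genes under 36% GC, 65.7% were higher beyond counting error, and their median log2 fold was 0.25. From 36% to 40% GC the median was 0.17, and from 48% to 52% it was -0.05. By length, the median ran from -0.13 under 500 bases to 0.10 at 6000 bases or more. A smooth curve on effective length and GC content was fitted to 8429 protein-coding genes that reached 10 CPM in both libraries and took up 32.7% of the variance of their log2 folds. Values after subtracting that curve are called trend removed below and stand beside the plain ones. Whether GC content and length had a part in any single difference was not tested.

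**Figure D2:**
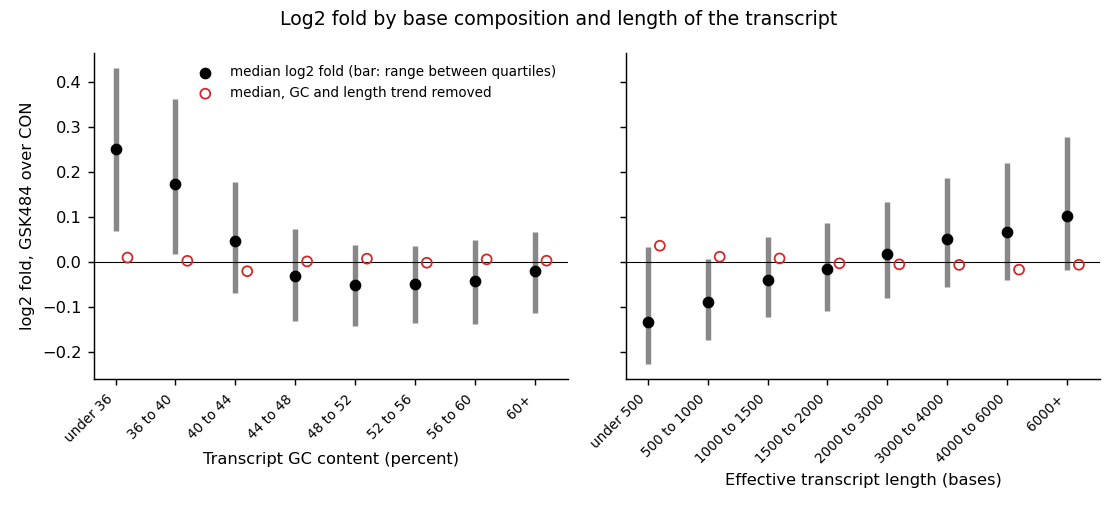
Black points show the median log2 fold of GSK484 over CON in bins of transcript GC content (left, percent) and effective transcript length (right, bases), grey bars the range between quartiles, and red circles the median with the trend removed. The median fell from 0.25 under 36% GC to -0.05 at 48% to 52%, and climbed with length from -0.13 to 0.10.

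Another limit concerns reads that fit more than 1 gene. The expected counts of 8253 genes (62.5%) were whole numbers within 0.005 in both libraries, so their reads were not divided with another gene. The others carried divided reads and are marked as such where named, since a shift of shared reads between genes can appear as a change. Genes with whole counts were therefore ranked by the end of the counting interval nearest to no difference, and the 25 leading genes in each direction were described. The same ranking was repeated with the trend removed, which returned 20 of the 25 lower genes but 15 of the 25 higher ones.

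The ranked lower genes had a median GC content of 52.4%, an effective length of 1526 bases and log2 folds from -1.23 to -0.54. They are described by role, a grouping made after their values were seen, together with KLK10 and ELF3, named for their level, and CD180, GABRP and KLHDC7A, which entered the ranking with the trend removed only. First come secreted and mucosal proteins. In bulk RNA, fewer cells with a transcript and less of it per cell cannot be told apart. MGP (ENSG00000111341), a secreted vitamin K-dependent protein that inhibits calcification, was at 248 CPM in CON, 168 in GSK484 and 206 in NT. Its log2 fold was -0.57 (counting interval -0.60 to -0.54), and -0.60 with the trend removed. AGR2 (ENSG00000106541), an endoplasmic reticulum disulfide isomerase of mucus-producing cells, was at 28.1 CPM in CON, 17.8 in GSK484 and 23.2 in NT, a log2 fold of -0.66 (-0.76 to -0.57). For both genes NT lay between the treated libraries. S100P, a calcium-binding EF-hand protein, was at 41.4 CPM in CON, 28.0 in GSK484 and 31.2 in NT, a log2 fold of -0.57 that became -0.38 with the trend removed. GDF15, a stress-induced secreted factor, was at 114 CPM in CON, 78.1 in GSK484 and 83.5 in NT. LCN2, which binds bacterial siderophores, was at 129 CPM in CON, 83.5 in GSK484 and 94.1 in NT. In these 3 genes NT was nearer to GSK484 than to CON, so their distance lies mostly between CON and the other libraries. KLK10, a secreted serine protease of the kallikrein family whose reads were divided, was at 100 CPM in CON, 68.4 in GSK484 and 75.8 in NT.

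Cell surface proteins and enzymes follow. VTCN1, the T cell co-inhibitory ligand B7-H4, was at 2.49 CPM in CON, 1.27 in GSK484 and 1.70 in NT (log2 fold -0.97, interval -1.33 to -0.62). LGALS9, the sugar-binding protein galectin-9, was at 2.35 CPM in CON, 1.21 in GSK484 and 1.73 in NT (log2 fold -0.96, interval -1.33 to -0.60). With the deposited TPM the log2 fold of LGALS9 was -0.48. CD180, a Toll-like receptor relative, was at 2.82 CPM in CON, 1.63 in GSK484 and 2.16 in NT (log2 fold -0.79, interval -1.11 to -0.48). In all 3 NT lay between the treated libraries, and at these low levels the counting intervals were wide. GABRP, the pi subunit of the GABA-A receptor found in epithelia, was at 151 CPM in CON, 106 in GSK484 and 144 in NT, a log2 fold of -0.51 (interval -0.55 to -0.47). For GABRP too NT lay between the treated libraries, nearer to CON. HPGD, the dehydrogenase that inactivates prostaglandins, was at 7.69 CPM in CON, 4.72 in GSK484 and 7.90 in NT, so NT lay above both. Its log2 fold of -0.70 became -0.82 with the trend removed. PTPRH, a receptor tyrosine phosphatase, was at 1.48 CPM in CON, 0.757 in GSK484 and 0.884 in NT. ACHE, which breaks down acetylcholine, was at 2.08 CPM in CON, 1.10 in GSK484 and 1.57 in NT.

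Some lower genes act inside the cell. BCL3, a nuclear partner of NF-kB subunits, was at 37.1 CPM in CON, 24.2 in GSK484 and 25.7 in NT (log2 fold -0.61, interval -0.70 to -0.53). TRIM31, a ubiquitin ligase of mucosal epithelia, was at 17.2 CPM in CON, 11.0 in GSK484 and 13.8 in NT (log2 fold -0.65, interval -0.77 to -0.53). ELF3, an ETS factor of epithelial cells with divided reads, was at 153 CPM in CON, 101 in GSK484 and 123 in NT. Several others are little described. ITPRID1 was at 2.16 CPM in CON, 1.08 in GSK484 and 2.47 in NT, a log2 fold of -1.0 (interval -1.39 to -0.63). The SH2-domain adaptor gene SHF was at 5.72 CPM in CON, 3.40 in GSK484 and 3.86 in NT. Its log2 fold of -0.75 became -0.26 with the deposited TPM. KLHDC7A, which encodes a kelch repeat protein, was at 2.64 CPM in CON, 1.55 in GSK484 and 2.19 in NT. The RING finger ligase gene RNF122 was at 1.249 CPM in CON, 0.629 in GSK484 and 0.842 in NT. TSPAN12, a tetraspanin of Norrin signalling, was at 1.67 CPM in CON and 0.873 in GSK484, but its deposited TPM, which divides by the estimated transcript length, was 0.74 in CON and 0.75 in GSK484. The lower level of TSPAN12 thus holds for reads per gene and not for the length-scaled estimate. Over the 25 ranked lower genes, NT lay between both treated libraries in 22, above both in 3 and below both in 0. They were picked for a high CON level relative to GSK484, so that count describes these genes alone.

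Promoters were read for 2 short motifs, the TATA box letters TATAAA and CCGGAA, the core of ETS factor sites. RefSeq promoters of build GRCh38.p14, read as the 250 bases before the start, were matched by symbol for 86 of the 127 lower genes with a symbol and for 9883 measured genes. A gene was counted where any of its promoter entries held the motif, so genes with several entries had more chances to match. TATAAA, searched on both strands, was held by 13.95% of the matched lower genes, 9.76% of 205 matched higher genes and 7.90% of those measured. CCGGAA, also on both strands, was held by 6.98% of the lower, 28.3% of the higher and 30.8% of the measured genes. Neither motif can overlap the other. Median promoter GC content, averaged over the entries of each gene, was 57.2%, 63.2% and 64.8% in the same order, so base composition differed as well. A match is a run of letters and not a shown site. Of the ranked genes, 4 of 18 matched lower ones held TATAAA, and 9 of 22 matched higher ones held CCGGAA. The 3 lower promoters below were taken by rank from the ranked lower genes with a match and a single promoter entry. Distance from the start had no part in that choice. Capitals mark TATAAA in GDF15 and S100P and its reverse complement, TTTATA, in TRIM31. The first base of the match lies 30 bases before the start in TRIM31, 29 in GDF15 and 28 in S100P. The 2 higher ones, described further on, are shown for CCGGAA in capitals, 34 bases before the start in ZC3H13 and 160 in KTN1. Each line gives the last 200 bases before the start, 5′ to 3′ on the gene's strand.
TRIM31 (chr6:30113091-30113290, minus strand): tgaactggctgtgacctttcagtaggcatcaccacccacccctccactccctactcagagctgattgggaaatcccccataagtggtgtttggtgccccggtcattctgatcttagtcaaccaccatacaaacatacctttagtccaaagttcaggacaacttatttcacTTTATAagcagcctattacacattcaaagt
GDF15 (chr19:18385958-18386157, plus strand): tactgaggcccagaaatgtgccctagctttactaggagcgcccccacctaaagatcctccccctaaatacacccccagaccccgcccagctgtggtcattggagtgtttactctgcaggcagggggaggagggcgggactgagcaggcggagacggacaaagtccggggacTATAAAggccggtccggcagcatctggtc
S100P (chr4:6693678-6693877, plus strand): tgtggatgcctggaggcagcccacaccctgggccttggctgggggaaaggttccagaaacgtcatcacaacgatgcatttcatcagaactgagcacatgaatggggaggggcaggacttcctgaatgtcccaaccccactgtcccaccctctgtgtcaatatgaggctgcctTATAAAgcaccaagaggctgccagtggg
ZC3H13 (chr13:46052747-46052946, minus strand): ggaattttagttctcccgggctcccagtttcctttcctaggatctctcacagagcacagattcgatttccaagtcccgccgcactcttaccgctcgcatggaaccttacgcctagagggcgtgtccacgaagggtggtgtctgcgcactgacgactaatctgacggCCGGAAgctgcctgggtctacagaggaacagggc
KTN1 (chr14:55580007-55580206, plus strand): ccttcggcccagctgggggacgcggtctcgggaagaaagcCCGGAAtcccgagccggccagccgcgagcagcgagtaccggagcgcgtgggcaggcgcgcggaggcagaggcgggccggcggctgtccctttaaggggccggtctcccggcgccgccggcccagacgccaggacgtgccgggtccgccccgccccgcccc

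The ranked higher genes were long and of low GC content, with medians of 4472 bases and 38.3%, and their log2 folds ran from 0.77 to 1.39. ZC3H13 (ENSG00000123200), a zinc finger protein of the RNA m6A methyltransferase complex, was at 23.1 CPM in CON, 45.8 in GSK484 and 54.8 in NT. Its log2 fold was 0.99 (interval 0.91 to 1.07), and 0.84 with the trend removed. KTN1 (ENSG00000126777), kinectin, a kinesin receptor of the endoplasmic reticulum, was at 137 CPM in CON, 253 in GSK484 and 304 in NT, with a log2 fold of 0.88 (0.85 to 0.91) and 0.64 with the trend removed. BOD1L1, which protects stalled replication forks, was at 7.92 CPM in CON, 15.3 in GSK484 and 21.8 in NT. In all 3 genes CON was the lowest library and NT the highest. The same order held for GOLGB1, the Golgi tether giantin, at 25.6 CPM in CON, 44.9 in GSK484 and 56.8 in NT. It also held for EEA1, the tether of early endosomes, at 2.54 CPM in CON, 5.06 in GSK484 and 7.97 in NT, whose log2 fold of 0.99 became 0.66 with the trend removed. VPS13A, a lipid transfer protein, was at 11.0 CPM in CON, 19.4 in GSK484 and 26.04 in NT. ROCK2, a kinase of actomyosin contraction, was at 32.0 CPM in CON, 55.0 in GSK484 and 72.6 in NT. Over the 25 ranked higher genes, NT lay above both treated libraries in 21, between them in 4 and below both in 0. The genes were picked for a low CON level relative to GSK484, so that count describes these genes alone.

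**Figure D3:**
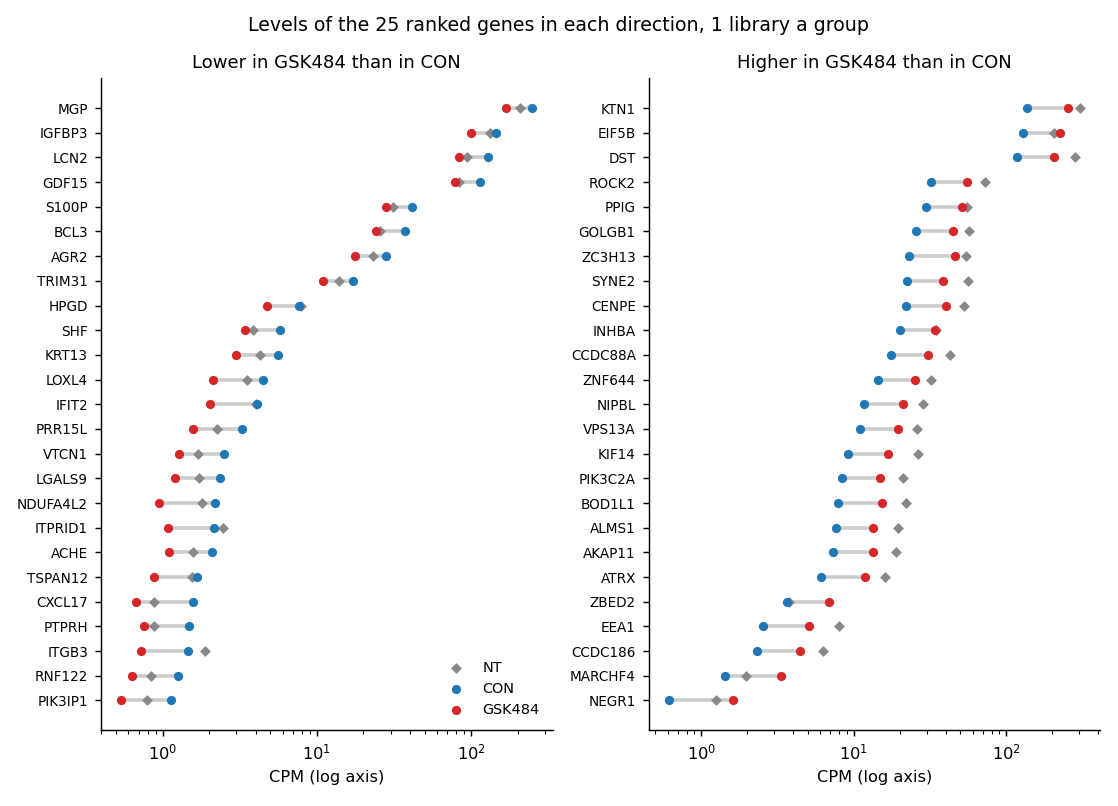
CPM on a log axis of the 25 ranked lower genes (left) and the 25 ranked higher genes (right) in the CON, GSK484 and NT libraries, 1 library each, with a grey bar joining CON and GSK484. On the right the NT diamond lies beyond GSK484 for 21 of 25 genes, as for KTN1 at 304 CPM, and NEGR1, EIF5B, MARCHF4 and ZBED2 are the others.

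Other higher genes stood above both other libraries in GSK484, among them ST3GAL5, UBAP1L and THAP10, which entered the ranking with the trend removed only. MARCHF4, a membrane-bound ubiquitin ligase, was at 1.44 CPM in CON, 3.32 in GSK484 and 1.96 in NT, and its log2 fold was 1.21, or 1.17 with the trend removed. ZBED2, a zinc finger transcription factor of keratinocytes, was at 3.65 CPM in CON, 6.84 in GSK484 and 3.73 in NT, with a log2 fold of 0.90 (interval 0.71 to 1.11) and 0.95 with the trend removed. ST3GAL5, the enzyme that makes the ganglioside GM3, was at 1.09 CPM in CON, 2.16 in GSK484 and 1.39 in NT, with a log2 fold of 0.99 (0.62 to 1.36) both plain and with the trend removed. In these 3 genes GSK484 was the highest library and CON the lowest. UBAP1L was at 1.40 CPM in CON, 2.68 in GSK484 and 1.85 in NT, with 0.91 after the trend was removed. THAP10, a THAP-domain zinc finger gene, was at 2.06 CPM in CON, 3.57 in GSK484 and 2.98 in NT, with 0.80 after the trend was removed. EIF5B, the GTPase that joins ribosomal subunits at initiation, was at 129 CPM in CON, 224 in GSK484 and 206 in NT. INHBA, the activin A subunit gene, did not stand above NT and was at 20.1 CPM in CON, 34.3 in GSK484 and 34.7 in NT, and its log2 fold of 0.77 became 0.56. EIF5B and INHBA were alike in GSK484 and NT, and CON stood apart.

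In counts of reads, the genes that gained most in GSK484 included chaperones and basal epithelial genes. CPM is not divided by length, so these values are compared between libraries and not between genes. HSP90AA1, the inducible cytosolic HSP90 whose reads were divided, was at 2135 CPM in CON, 3300 in GSK484 and 3506 in NT. HSP90B1, its endoplasmic reticulum counterpart with divided reads, was at 1116 CPM in CON, 1457 in GSK484 and 1361 in NT. The next gains were smaller in proportion. ITGB4, an integrin of hemidesmosomes, was at 2488 CPM in CON, 2802 in GSK484 and 2303 in NT, a log2 fold of 0.17. The laminin-binding ITGA3 was at 1520 CPM in CON, 1737 in GSK484 and 1548 in NT. KRT5, the basal keratin with divided reads, was at 1212 CPM in CON, 1452 in GSK484 and 1287 in NT. ITGB4, ITGA3 and KRT5 were higher in GSK484 than in both CON and NT, though by less than 1.5-fold. MYH9, a nonmuscle myosin heavy chain, was at 1080 CPM in CON, 1275 in GSK484 and 1145 in NT. Among the 10 largest losses 8 were mitochondrially encoded, the first being MT-CO1 with divided reads at 14096 CPM in CON, 10690 in GSK484 and 13083 in NT. The other 2 were GAPDH, at 7973 CPM in CON and 7072 in GSK484, and EEF1A1, at 9178 CPM in CON and 8587 in GSK484, both with divided reads. With the deposited TPM EEF1A1 had the other sign (log2 fold 0.02), where the median of all genes was 0.10.

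Gene families outside the usual pathway lists were then read in the same way, 67 in all, of which 66 had at least 5 measured members. Their median log2 folds ran from -0.16 to 0.49, and 42 lay within 0.05 of 0. Above 0.1 were 8 medians and below -0.1 were 3, or 4 and 2 with the trend removed. A family's share of called members is read beside the background of 26.9% higher and 27.4% lower, and no test of a family was made.

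Cohesin and condensin genes, whose ring-shaped complexes hold and fold chromosomes, had the largest plain median. With the trend removed that of 5 measured mucins was larger, at 0.35. Of 24 cohesin and condensin genes measured, 18 were higher and 2 lower, with 5 at least 1.5-fold higher, and the median was 0.49, or 0.27 with the trend removed. NIPBL, which loads cohesin, was at 11.7 CPM in CON, 20.9 in GSK484 and 28.3 in NT (a log2 fold of 0.83). SMC6, of the SMC5/6 complex, was at 30.3 CPM in CON, 49.3 in GSK484 and 52.5 in NT (0.70), and the cohesin regulator PDS5B at 13.1 CPM in CON, 21.4 in GSK484 and 26.4 in NT (0.71). Subunits of the same rings did not share 1 value. SMC3, with divided reads, had a log2 fold of 0.80 and its partner SMC1A 0.05, while SMC2 had 0.56 and the condensin II subunit NCAPH2 0.05. MAU2, the partner of NIPBL, was lower at -0.16.

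Centrosomal genes had 30 of 43 measured members higher and 1 lower, with 9 at least 1.5-fold higher and a median of 0.24, or 0.15 with the trend removed. PCM1, the scaffold of centriolar satellites, was at 31.4 CPM in CON, 50.7 in GSK484 and 62.1 in NT. CEP350, a microtubule-binding centriole protein, was at 10.7 CPM in CON, 18.4 in GSK484 and 25.7 in NT. CCDC88A, the actin-binding protein girdin, was at 17.5 CPM in CON, 30.8 in GSK484 and 42.8 in NT. Others of the family lay near equality, among them PCNT at a log2 fold of 0.10 and CEP192 at 0.06, and CEP85 was lower at -0.20. Giant cytoskeletal linkers, which tie filaments to membranes, nuclei and junctions, had 16 of 19 measured higher and 0 lower, with a median of 0.15, or 0.12 with the trend removed. PLEC, the plakin plectin, was at 897 CPM in CON, 1056 in GSK484 and 817 in NT, so it was highest in GSK484. SYNE2, a nuclear envelope linker, was at 22.3 CPM in CON, 38.7 in GSK484 and 56.4 in NT, and UTRN, utrophin, at 4.69, 7.69 and 10.3 CPM in the same order.

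Genes listed as chromatin remodelers included parts of ATPase complexes that slide or evict nucleosomes, and other chromatin proteins. Of 40 measured, 25 were higher and 2 lower, with a median of 0.11, or 0.09 with the trend removed. ATRX was at 6.06 CPM in CON, 11.8 in GSK484 and 15.9 in NT, and its log2 fold of 0.97 became 0.69. ARID4A was at 4.12 CPM in CON, 7.40 in GSK484 and 10.2 in NT, and SMARCA1, an ISWI ATPase, at 7.004, 10.9 and 12.4 CPM in the same order. The catalytic subunits SMARCA4 and CHD3 lay at 0.07 and -0.00. Kinesins had 17 of 29 higher and 7 lower, with a median of 0.11. The mitotic motors KIF14, KIF20B and KIF11 had log2 folds of 0.88, 0.71 and 0.57, or 0.64, 0.40 and 0.35 with the trend removed. Ubiquitin-specific proteases had 19 of 44 higher and 4 lower, with a median of 0.06, and RNA helicases 20 of 48 higher and 5 lower, with a median of 0.04.

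Families with more lower than higher members included several of surface proteins. The TNF and TNF receptor superfamily had 8 of 17 measured lower and 3 higher, with a median of -0.16, or -0.12 with the trend removed. The ligand TNFSF14 was at 1.90 CPM in CON, 1.28 in GSK484 and 0.954 in NT, and the TWEAK receptor TNFRSF12A at 316 CPM in CON, 251 in GSK484 and 281 in NT (a log2 fold of -0.33). The death receptor FAS, with divided reads, was higher at 0.29. Ephrins and Eph receptors, paired ligands and kinases of cell contact, had 10 of 15 lower and 2 higher. Their median was -0.10, or -0.11 with the trend removed. With the deposited TPM it was 0.01, where that of all genes was 0.10. EPHB1 was at 5.07 CPM in CON, 3.59 in GSK484 and 4.65 in NT (a log2 fold of -0.50), and its relative EPHB2 was on the other side, at 24.3 CPM in CON, 31.0 in GSK484 and 26.2 in NT (0.35). Tetraspanins, small membrane organisers, had 11 of 21 lower and 2 higher, with a median of -0.13, or -0.06 with the trend removed. TSPAN15 was at 30.04 CPM in CON, 24.98 in GSK484 and 29.2 in NT, and CD82 was higher at 37.6 CPM in CON, 44.7 in GSK484 and 39.6 in NT. Small nucleolar RNA host genes had 14 of 23 lower and 1 higher, with a median of -0.12 that became -0.04 with the trend removed, and their strand of counting is not known.

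**Figure D4:**
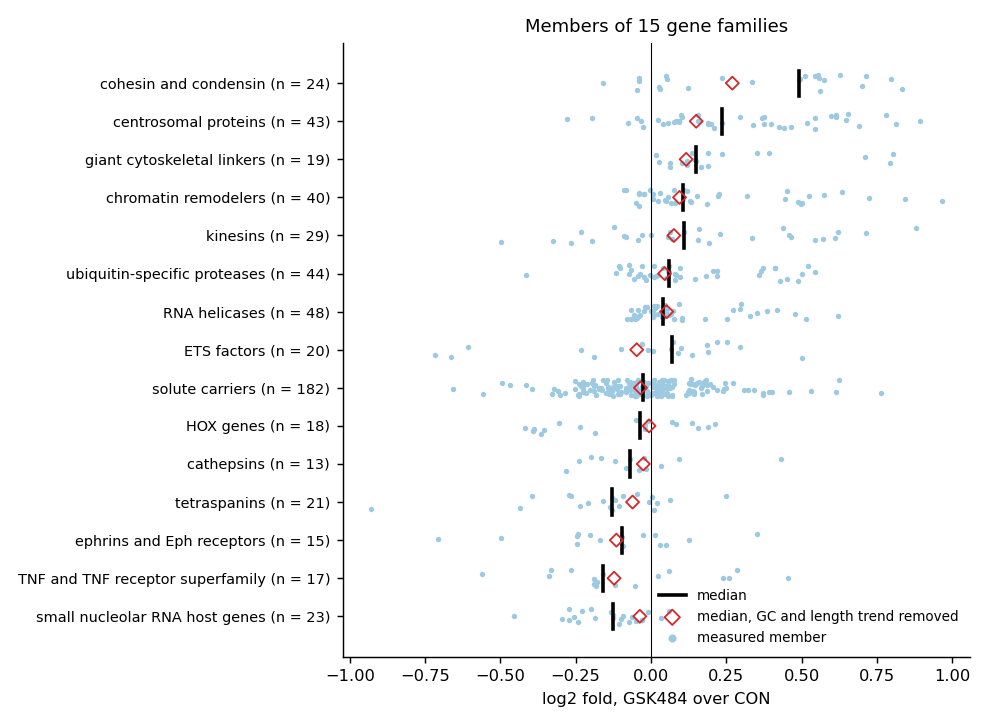
Each blue point is the log2 fold of GSK484 over CON of 1 measured member of 15 families, the black bar is the family's median and the red diamond its median with the trend removed. Cohesin and condensin genes have the highest median, 0.49, which moved to 0.27, and TNF superfamily genes the lowest, -0.16.

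Transcription factor families were split. Of 20 ETS factors 9 were higher and 5 lower, with a median of 0.07 that became -0.05 with the trend removed. ETV7 was at 2.41 CPM in CON, 1.46 in GSK484 and 2.67 in NT (a log2 fold of -0.72), and SPDEF, a factor of secretory cells, at 1.85, 1.17 and 1.502 CPM in the same order (-0.66). These 2 and ELF3 were the ETS genes at least 1.5-fold lower, and GABPA, with divided reads, was higher at 0.50. Of 18 HOX genes 8 were lower and 1 higher, with a median of -0.03. With the deposited TPM it was 0.03, where that of all genes was 0.10. HOXC11 was at 16.0 CPM in CON, 12.2 in GSK484 and 12.7 in NT (-0.39), HOXA5 at 8.36, 6.38 and 7.38 CPM in the same order (-0.39), and HOXC8 was on the other side at 0.21. Among circadian genes, BMAL1 had a log2 fold of -0.37 and its partner CLOCK 0.50, or 0.23 with the trend removed. BHLHE41, a repressor of that loop, was at 36.7 CPM in CON, 27.2 in GSK484 and 30.2 in NT (-0.43).

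Transport, secretion and glycan genes differed gene by gene. Of 182 solute carriers 37 were higher and 62 lower, with a median of -0.03, or 0.01 without TMM factors. With the deposited TPM it was 0.09, where that of all genes was 0.10. SLC18A2, the vesicular monoamine transporter, was at 4.33 CPM in CON, 7.35 in GSK484 and 8.52 in NT (a log2 fold of 0.76, or 0.67 with the trend removed), and the zinc importer SLC39A10 at 9.90, 15.2 and 19.4 CPM in the same order (0.61, or 0.37). Of 17 sialyl- and fucosyltransferases 2 were higher and 5 lower, and ST3GAL4 was at 146 CPM in CON, 118 in GSK484 and 124 in NT (-0.31), opposite in sign to ST3GAL5. Of 26 semaphorins and plexins 9 were higher and 7 lower. The secreted guidance cue SEMA3C was at 23.6 CPM in CON, 36.8 in GSK484 and 46.6 in NT (0.64), while the membrane-bound SEMA4A was at 17.5, 13.0 and 13.4 CPM in the same order (-0.43). Among phosphodiesterases, PDE1C was at 62.1 CPM in CON, 76.98 in GSK484 and 83.7 in NT (0.31, or 0.12 with the trend removed). The desaturase gene DEGS1, of ceramide synthesis, was at 99.4 CPM in CON, 80.9 in GSK484 and 93.9 in NT (-0.30).

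Genes named only by a reading frame or a numbered family were counted in the same way. Of 133 open reading frame genes 24 were higher and 35 lower, of 104 FAM genes 25 and 23, and of 150 TMEM genes 19 and 59, with medians of -0.03, -0.01 and -0.08. With the deposited TPM these medians were 0.08, 0.12 and 0.02, where that of all genes was 0.10. C18orf54 was at 3.44 CPM in CON, 5.48 in GSK484 and 6.26 in NT. Its log2 fold was 0.67, or 0.37 with the trend removed and 0.26 with the deposited TPM. C1orf53 was at 3.69 CPM in CON, 2.49 in GSK484 and 3.06 in NT (-0.57, or -0.38 with the trend removed). FAM83B, a mediator of growth factor signalling, was at 2.98 CPM in CON, 4.85 in GSK484 and 7.21 in NT, and FAM111B, a serine protease, at 36.1, 52.9 and 69.4 CPM in the same order. TMEM175, a lysosomal potassium channel, was at 16.3 CPM in CON, 12.8 in GSK484 and 13.8 in NT (-0.35). CHIC1 was at 0.570 CPM in CON, 1.15 in GSK484 and 1.11 in NT (1.01, or 0.77 with the trend removed).

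The deposited tables also give a length per gene, the mean length of its annotated transcripts weighted by their estimated abundance. Among 6498 genes of at least 5 CPM with whole counts in both libraries, 78.6% had lengths within 5% of each other. The length was at least 1.2 times longer in GSK484 for 72 genes and shorter for 42. LYRM7, an assembly factor of respiratory complex III, had a length of 2195 bases in CON, 4144 in GSK484 and 3834 in NT. XRN1, the cytoplasmic exonuclease that degrades decapped mRNA, had 5612 bases in CON, 9354 in GSK484 and 9379 in NT, and its reads were also more in GSK484 (log2 fold 0.75), though its deposited TPM differed less (0.11). LCOR, a ligand-dependent corepressor, had 3266 bases in CON, 5648 in GSK484 and 6370 in NT. In these 3 genes GSK484 and NT were alike and CON shorter. The other direction was seen for ZBTB43, a zinc finger repressor, with 5944 bases in CON, 3405 in GSK484 and 5937 in NT, where GSK484 alone was short. Reads of ZBTB43 came to 7.595 CPM in CON and 7.46 in GSK484, while its deposited TPM, which divides by the shorter length, was higher in GSK484 (log2 fold 0.92). EMSY, a BRCA2-binding protein gene, had 4589 bases in CON, 2752 in GSK484 and 3073 in NT, and its log2 fold was 0.29 by CPM and 1.17 by the deposited TPM. No error of these lengths can be computed from the deposited values.

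**Figure D5:**
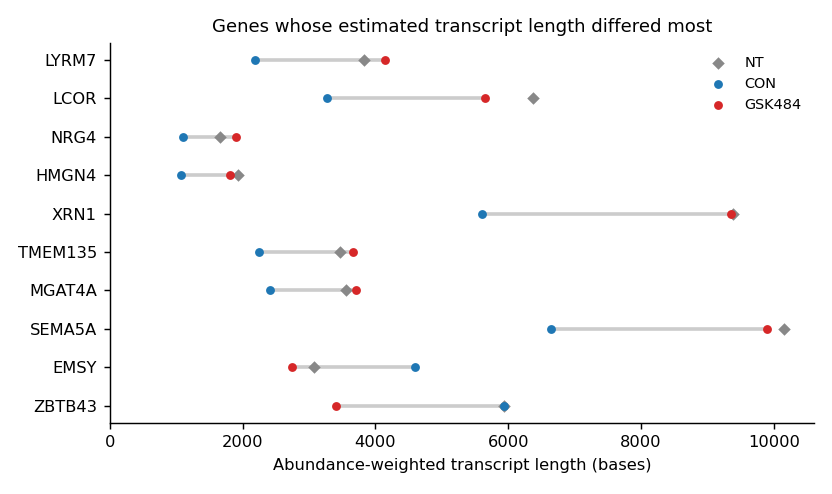
Abundance-weighted transcript length in bases of the 10 genes with the largest ratio between GSK484 and CON, in the CON, GSK484 and NT libraries, 1 library each. ZBTB43 is short in GSK484 alone, at 3405 bases, and 8 of the genes are longer in GSK484 than in CON.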

How the data were processed

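RNA of 3 libraries, 1 each for NT, CON and GSK484, was sequenced after TRIzol extraction and stranded total RNA library preparation as paired 125 bp reads, per the labels' protocols. RSEM and the hg19 build were used, per the submitters' processing notes. The RSEM version, aligner, gene annotation and strand setting were not given in the sources used here, so antisense and overlapping genes are uncertain. The deposited expected counts are estimated, not normalized reads per gene, per the file headers. TPM values as deposited divide by effective length and share 1 total per library, per the file headers, and served as an alternative. Deposited transcript lengths were read as log2 ratios between libraries, and fragment length as length minus effective length.

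Expected counts were scaled with TMM factors (0.98 for CON, 1.01 for GSK484 and 1.01 for NT) from edgeR 4.0.16 in R 4.3.3. Log2 folds used a prior count of 0.5 and exact Clopper-Pearson 95% intervals on counts rounded to whole numbers, from scipy 1.17.1. With 1 library a group no test was possible. Intervals cover counting error only, and a count of 0 allows up to 3 counts, or 0.033 CPM in CON and 0.038 in GSK484. Symbols, gene types and GC content were taken by gene ID from GENCODE release 29 and a table of names, and 1.0% of counts lay in genes with no symbol. Genes of at least 200 bases effective length were named by rank as described, by level (at least 100 CPM), by CPM gain or loss, by up to 4 members per family, by a 2-fold size and by length ratio. Members, lists and families were chosen with earlier results of these data known. The ranking with the trend removed, and the limit of families to protein-coding genes except for small nucleolar RNA host genes, were chosen after seeing the data. The interval method was run on simulated data that held counting error only. That simulation had no spread between cultures, no divided reads and no GC and length trend, so it says nothing of these. DESeq2 1.42.0 gave an alternative scaling. FPKM was not used. Values of some measured genes are not reported here.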

Additional observations from a re-analysis of the deposited data

How the results depend on the processing

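No paired analysis was possible because each group is 1 library, and for the same reason no library could be left out. DESeq2 size factors and a prior count of 2 kept all 6 counts of higher and lower genes within 1.5 times, and so did scaling without TMM factors. With the deposited TPM there were 77 genes at least 2-fold higher, 618 at least 1.5-fold higher, 6694 higher beyond counting error and 1618 lower. A minimum of 5 CPM left 5 genes 2-fold higher, 7 2-fold lower, 174 1.5-fold higher and 35 1.5-fold lower, since low genes were dropped. With no minimum these were 539, 550, 936 and 804. Whole counts alone left 6, 7, 185 and 76, with 2319 higher and 2146 lower beyond counting error, and protein-coding genes alone left 13 and 16 at 2-fold and 103 lower at 1.5-fold. With the GC and length trend removed 160 genes were 1.5-fold higher, of which 137 were among the 302. Of 119 genes named, 7 had the other sign with the deposited TPM, under which the median of all genes was 0.10. Of these, 5 had been beyond counting error, namely LYRM7 at -0.61, LCOR at -0.38, MUC19 at -0.069, TSPAN12 at 0.019 and EEF1A1 at 0.019, and the others, ZBTB43 at 0.92 and CHD3 at 0.0079, had not. Of 595 values of single genes under 5 alternatives, 151 left the counting interval of the main value, 57 of them with the trend removed and 69 with TPM. Causes were not tested.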

Other observations

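Members of further families were read in the same way. Among nucleoporins, RANBP2, with divided reads, was at 46.6 CPM in CON, 86.1 in GSK484 and 109 in NT, and TPR, a basket protein with divided reads, at 71.0, 127 and 168 CPM in the same order, while the family median over 25 genes was 0.00. Of 10 annexins, calcium-dependent membrane binders, 4 were higher and 4 lower. ANXA1 was at 628 CPM in CON, 737 in GSK484 and 785 in NT, and ANXA10 was at 2.15, 1.62 and 2.47 CPM in the same order. Of 13 cathepsins 6 were lower and 1 higher. CTSV was at 94.1 CPM in CON, 82.0 in GSK484 and 96.5 in NT (a log2 fold of -0.20), and CTSO was on the other side at 2.09, 2.82 and 2.51 CPM (0.43). Among nuclear receptors, PPARG, a lipid-sensing factor, was at 44.6 CPM in CON, 36.5 in GSK484 and 42.7 in NT (-0.29), and the retinoic acid receptor RARG at 90.6, 76.4 and 85.4 CPM (-0.25). Of 5 mucins, with a median of 0.35 both plain and with the trend removed, 1 was higher and 1 lower. MUC19 was at 0.680 CPM in CON, 1.18 in GSK484 and 1.36 in NT (0.79, or -0.07 with the deposited TPM), and MUC5AC at 6.51, 5.74 and 4.80 CPM in the same order (-0.18). The mitotic scaffold gene ANLN was at 100 CPM in CON, 148 in GSK484 and 180 in NT.

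Of 677 measured genes with no symbol, 39 were at least 1.5-fold higher and 39 at least 1.5-fold lower, which is 5.76% each against 2.29% and 1.26% of all genes. These genes had a median of 3.47 CPM in the larger library, and 69.0% carried divided reads. ENSG00000226958, with whole counts and an effective length of 251 bases, was at 180 CPM in CON, 381 in GSK484 and 307 in NT, a log2 fold of 1.08. ENSG00000147402 was at 2.07 CPM in CON, 1.35 in GSK484 and 1.96 in NT (-0.62). CD14, a co-receptor for lipopolysaccharide, was at 9.15 CPM in CON, 6.26 in GSK484 and 7.83 in NT (a log2 fold of -0.55). Of 274 processed pseudogenes measured, 83 were higher (30.3%) and 35 lower (12.8%) beyond counting error. Over all genes these shares were 26.9% and 27.4%, so the higher share was near that of all genes and the lower share was below it. At least 1.5-fold higher were 22 pseudogenes (8.03%, against 2.29% of all genes). At least 1.5-fold lower were 8 (2.92%, against 1.26%). Their median log2 fold was 0.09, or 0.22 with the trend removed. Only 12 of the 274 had whole counts.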
